A study of Mus musculus with 8 samples.

Results

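The 9 genes described here encode the 3 transforming growth factor beta (TGF-beta) ligands (Tgfb1, Tgfb2, Tgfb3), their receptors (Tgfbr1, Tgfbr2, Tgfbr3), the latent TGF-beta binding proteins Ltbp1 and Ltbp2, and Tgfbi, a matrix protein named for its induction by TGF-beta. They were found by gene symbol among 45101 probe sets of Affymetrix whole-genome mouse arrays, which gave 23 probe sets of the 9 genes out of 18194 named genes on the array. Levels were measured in 4 groups of 2 arrays. The first was OP9, a mouse bone marrow stromal line (strain given as B6C3F1), grown in contact with 230-238 pre-B cells and then sorted by its mStrawberry label. The second was OP9 carrying the same label but kept apart from the pre-B cells, in medium taken from the co-cultures. The other groups were MC3T3, an osteoblast line, and NIH3T3, an embryonic fibroblast line, both with the strain given as Balb/c. Each group is 1 cell line, and 2 of the groups are OP9. A difference between OP9 and another line is also one of culture medium, while the study's methods give NIH3T3 and MC3T3 the same medium. The 2 arrays of a group are called biological replicates in the labels. The description of the second MC3T3 array speaks of sorted cells and that of the first of a culture, and both were kept in 1 group. In all groups cRNA was prepared from 2000 cells.

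TGF-beta is secreted in a latent form. The ligand stays bound to its own propeptide, and the complex is tied to the extracellular matrix by a latent TGF-beta binding protein until integrins, proteases or thrombospondin release it. The free ligand binds the type II receptor, which phosphorylates the type I receptor, and the type I receptor phosphorylates Smad2 and Smad3. In stroma and fibroblasts the pathway is known for the control of matrix genes and of contractile genes, and it restrains both adipocyte and B-lymphocyte development.

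Of the 23 probe sets, 19 reached an intensity of 100 on at least 2 arrays, the level taken as expressed, and were tested. The other 4 were dim on every array. They were a second probe set of Tgfb1 (about 20), one of Tgfbr2 (7.94 to 10.2) and a pair for Ltbp1 (10.1 to 25.1), and all 9 genes were still represented. The values have been normalized, with array medians between 41.77 and 44.99, and 34.3% to 36.3% of probe sets at 100 or above. Replicate arrays correlated at 0.9955 to 0.9973 over the tested probe sets except in NIH3T3 (0.9879), where 214 probe sets differed more than 2-fold between the arrays, against 1 to 16 in the other groups. Stromal markers matched the labels: 8 of 9 fibroblast and stroma genes were at 100 or above on both arrays in both OP9 groups, 9 of 9 in MC3T3 and 7 of 9 in NIH3T3. In MC3T3, however, only 1 of 4 osteoblast markers on the array (Dlx5) was at that level, and the defining markers Sp7, Alpl and Ibsp were below it. OP9 cells also had all 6 adipocyte markers at that level. Fewer cells of a type and less RNA per cell cannot be told apart in such bulk samples.

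**Figure D1:**
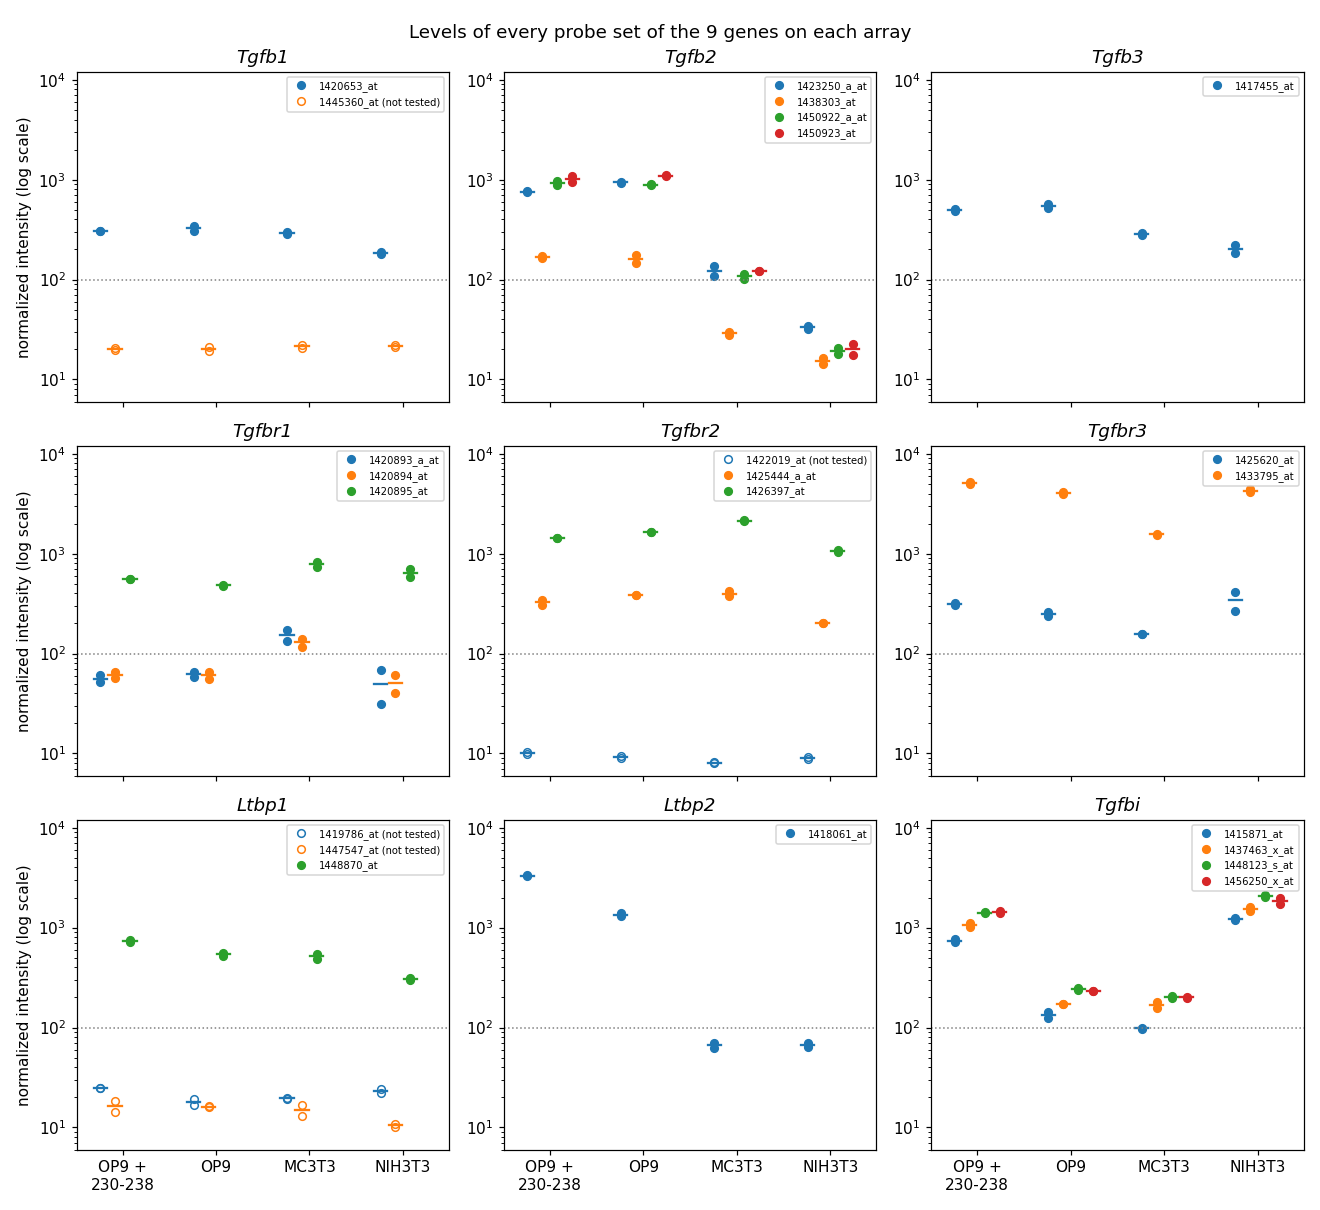
Normalized intensity (log axis) of each probe set of the 9 genes on each of the 8 arrays, by group; points are arrays, short bars are means of the 2 arrays, open points are the 4 probe sets that were not tested, and the dotted line is 100. The Tgfbi points of co-cultured OP9 cells and NIH3T3 cells lie far above those of OP9 and MC3T3 cells, Ltbp2 is above 100 in the OP9 groups alone, and Tgfb2 is highest in them.

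The comparison of co-cultured OP9 cells with OP9 cells asks what contact with pre-B cells does to the stroma. Tgfbi was 5.56- to 6.17-fold higher in co-culture and Ltbp2 was 2.48-fold higher, while none of the ligands and none of the signalling receptors was called. To be called, a probe set had to differ at least 2-fold with an adjusted p below 0.05 in a limma fit over all 18720 tested probe sets. Of the 19 tested, 5 were called higher and 0 lower, where 5.36% of all tested probe sets were called in either direction, 2.43% higher and 2.93% lower. By gene, taking the brightest probe set of each, 2 of 9 were called higher, against 2.71% of all genes. At an unadjusted p below 0.05 in limma, 7 probe sets were higher and 3 lower. By gene these counts were 4 and 2, where 19% of all genes were higher and 29.6% lower. The 19 probe sets are fewer observations than they appear, because 4 of the 5 calls are probe sets of Tgfbi.

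**Figure D2:**
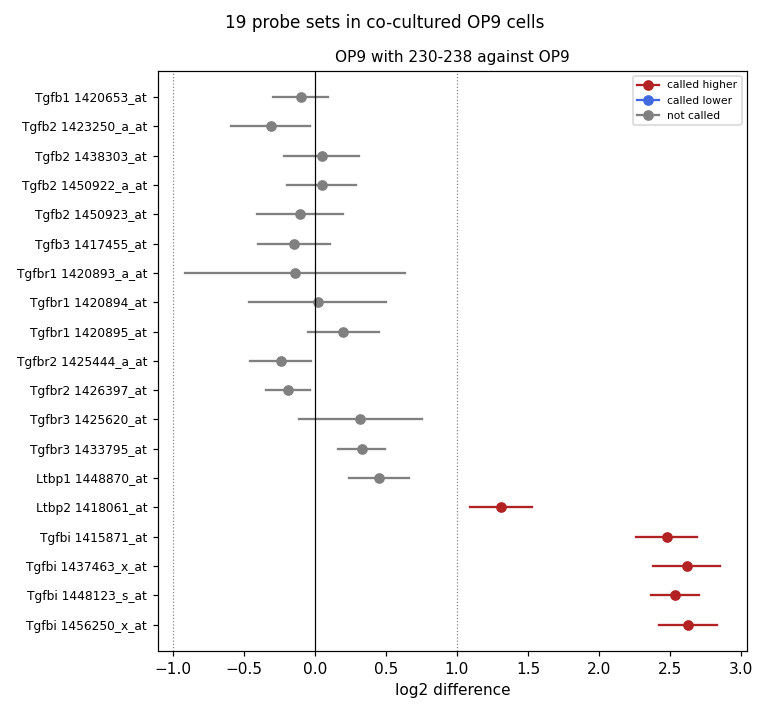
Log2 difference of co-cultured OP9 minus OP9 cells (x axis) for the 19 tested probe sets (rows); points are estimates from 2 arrays a group, bars are 95% confidence intervals of the limma fit, and dotted lines mark 2-fold. The 4 Tgfbi probe sets and Ltbp2 stand past the 2-fold line and the other 14 lie within it.

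Among the ligands, Tgfb1 measured 304 and 308 in co-culture and 347 and 309 in OP9 cells. Its log2 difference was -0.10, with a 95% interval of -0.29 to 0.10. Tgfb3 measured 514 and 480 in co-culture and 524 and 576 in OP9 cells, a log2 difference of -0.15 (interval -0.40 to 0.11). For both, the co-culture arrays lay just below the OP9 arrays, by less than the test could separate. Tgfb2 has 4 probe sets, and their log2 differences were between -0.31 and 0.05. The lowest was 1423250_a_at, at 775 and 745 in co-culture against 929 and 957 in OP9 cells, with an interval of -0.59 to -0.03 and an adjusted p of 0.0763 in limma. The arrays of the other 3 Tgfb2 probe sets overlapped between the groups.

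Among the receptors, Tgfbr2, which binds the ligand, measured 1442 and 1447 in co-culture and 1629 and 1663 in OP9 cells at its brightest probe set. That is 1.14-fold lower in co-culture (limma adjusted p = 0.0614), and a second probe set was 1.18-fold lower (adjusted p = 0.074). The arrays did not overlap at either probe set, but neither passed the threshold. Tgfbr1, the kinase that signals to the SMADs, measured 554 and 557 in co-culture and 488 and 478 in OP9 cells at its brightest probe set, a log2 difference of 0.20 (interval -0.05 to 0.45). Tgfbr3, or betaglycan, a coreceptor that presents the ligand to the type II receptor, measured 5162 and 4996 in co-culture and 3990 and 4096 in OP9 cells. This probe set was 1.26-fold higher with an adjusted p of 0.0103 in limma, below the 2-fold minimum. Its dimmer probe set was 1.25-fold higher with an adjusted p of 0.214.

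Of the latency proteins, Ltbp2 was called. Ltbp1, which binds the latent complex covalently and carries it to the matrix, measured 726 and 745 in co-culture and 559 and 519 in OP9 cells. It was 1.37-fold higher (limma adjusted p = 0.00761), which is below the 2-fold minimum. Ltbp2 shares the structure of the family and binds fibrillin but is not known to carry latent TGF-beta. It measured 3252 and 3391 in co-culture and 1387 and 1296 in OP9 cells, with every co-culture array far above every OP9 array. Its log2 difference was 1.31 ± 0.09 (SE), with an adjusted p of 8.93e-05 in limma.

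Tgfbi is secreted into the matrix, where it binds collagens and integrins. At 1448123_s_at, its brightest probe set, it measured 1393 and 1432 in co-culture and 240 and 248 in OP9 cells. At 1456250_x_at it measured 1456 and 1412 in co-culture and 233 and 232 in OP9 cells. At 1437463_x_at it measured 1010 and 1116 in co-culture and 173 on both OP9 arrays. The same step was seen at 1415871_at, the one Tgfbi probe set with no suffix for possible cross-hybridization, with 713 and 767 in co-culture and 124 and 143 in OP9 cells. The 4 differences were 5.79-, 6.17-, 6.13- and 5.56-fold, and all had an adjusted p of 7.58e-06 or less in limma. The groups did not overlap at any of the 4 probe sets.

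The promoters of Tgfbi and Ltbp2, the genes called in co-culture, are shown because both members moved in the same direction. Each window runs from 250 bases before to 50 bases after the gene's start in RefSeq, build GRCm38.p6, and the table holds such a window for 7 of the 9 genes. Capitals mark the SMAD box (CAGAC or, on the other strand, GTCTG) and the TATA box (TATAAA, either strand). The Tgfbi window is chr13:56609336-56609635 on the + strand and the Ltbp2 window is chr12:84876442-84876741 on the - strand.
Tgfbi: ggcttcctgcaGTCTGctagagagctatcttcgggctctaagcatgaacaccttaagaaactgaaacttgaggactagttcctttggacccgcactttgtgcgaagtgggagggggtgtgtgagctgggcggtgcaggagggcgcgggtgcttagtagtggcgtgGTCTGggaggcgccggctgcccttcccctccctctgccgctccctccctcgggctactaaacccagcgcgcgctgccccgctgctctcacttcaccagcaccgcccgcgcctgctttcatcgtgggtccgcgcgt
Ltbp2: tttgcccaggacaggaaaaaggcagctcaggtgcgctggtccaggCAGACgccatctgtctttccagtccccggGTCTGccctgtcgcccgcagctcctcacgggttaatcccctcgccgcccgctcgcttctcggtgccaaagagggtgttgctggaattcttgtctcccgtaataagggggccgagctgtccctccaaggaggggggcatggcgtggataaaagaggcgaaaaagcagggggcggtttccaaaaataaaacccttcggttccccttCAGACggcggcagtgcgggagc
The Tgfbi window held 2 SMAD boxes and the Ltbp2 window 3. Such a box of 5 letters is common: 49.6% of the 32851 promoter windows held at least 1. Neither window held a TATA box, found in 13.6% of windows, or an AP-1 site (TGANTCA, either strand), found in 7.81%.

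The genes around the pathway were counted from 5 lists, each gene by its brightest probe set. Of 31 tested target genes known from the TGF-beta literature, 4 were called higher and 6 lower in co-culture, where 5.67% of all 10084 tested genes were called (2.71% higher and 2.97% lower). The median log2 difference of the list was -0.01, against -0.05 over all genes. Those called lower were led by matrix and contractile genes. Tnc, the matrix protein tenascin C, measured 68.6 and 76.2 in co-culture and 698 and 685 in OP9 cells, 9.56-fold lower (limma adjusted p = 2.24e-06). Postn, the matrix protein periostin, was called lower, with 62.1 and 60.4 in co-culture, close to the background range, and 379 and 475 in OP9 cells. Acta2, smooth muscle actin, was 6.60-fold lower, with 1185 and 1317 in co-culture and 7844 and 8666 in OP9 cells. For each of these the co-culture arrays lay far below the OP9 arrays.

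Tagln, an actin-binding protein of contractile cells, was 2.87-fold lower and Ccn2, the connective tissue growth factor, was 2.42-fold lower. The sixth was Pmepa1, which holds SMADs back from the receptor and was 2.16-fold lower. The 4 called higher, named here after their values were seen, were Timp1, an inhibitor of matrix proteases (2.85-fold), Sphk1, a sphingosine kinase (2.68-fold), the transcription factor Bhlhe40 (2.21-fold) and the growth factor gene Vegfa (2.01-fold). Vegfa stood just past the 2-fold minimum. The 4 collagen genes of the list were not called. Col1a1 had a log2 difference of -0.04, Col1a2 of 0.01, Col5a1 of 0.29 (adjusted p = 0.0418) and Col3a1 of 0.64 (adjusted p = 0.000544), the last 2 below the 2-fold minimum. The target genes therefore moved in both directions in the cells where Tgfbi was higher.

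**Figure D3:**
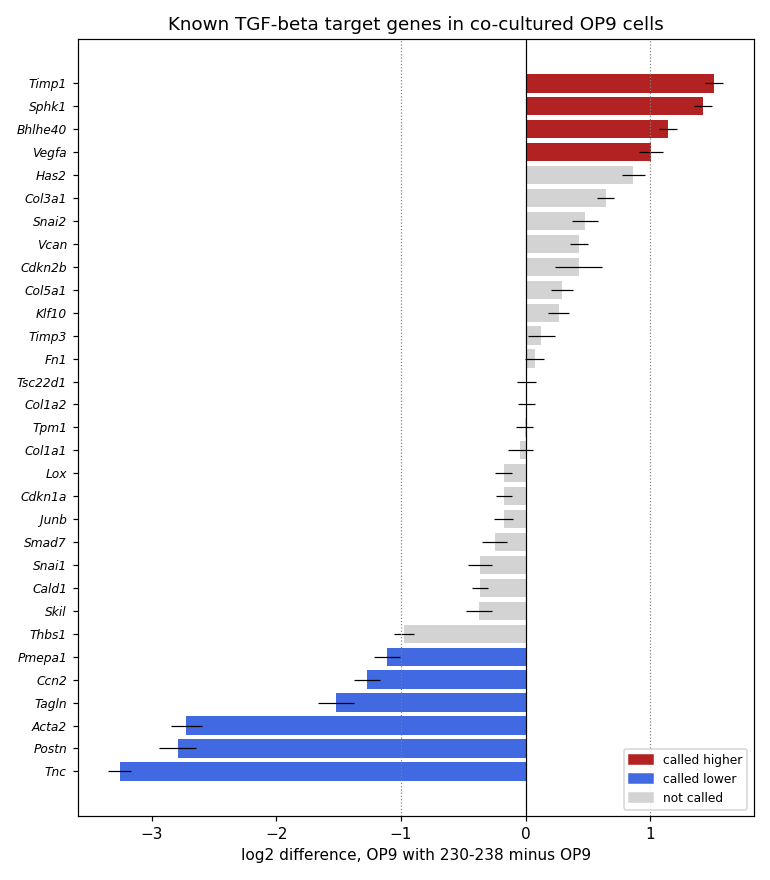
Log2 difference of co-cultured OP9 minus OP9 cells (x axis) for the 31 tested target genes (rows), sorted; bars are estimates from 2 arrays a group, whiskers are standard errors, and dotted lines mark 2-fold. The 6 genes called lower reach 9.56-fold at Tnc, and the 4 called higher reach 2.85-fold at Timp1.

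In the list of latency and activation, 2 of 16 tested genes were called higher and 0 lower, against 2.71% and 2.97% of all genes. At an unadjusted p below 0.05 in limma, 4 were higher and 4 lower, against 19% and 29.6% of all genes. The gelatinase Mmp9, a protease that can release latent TGF-beta, was 19.7-fold higher, with 1505 and 1622 in co-culture against 81.0 and 77.3 in OP9 cells. Htra1, a secreted serine protease, was 2.05-fold higher. Ltbp3 and Ltbp4, the other binding proteins, had log2 differences of 0.04 and 0.29 and were not called. Thrombospondin 1 (Thbs1), an activator of the latent complex, was just short of the minimum, with 286 and 301 in co-culture and 562 and 594 in OP9 cells (1.97-fold lower).

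Of 8 tested coreceptors and matrix inhibitors, 1 was called higher and 0 lower, against 2.71% and 2.97% of all genes. At an unadjusted p below 0.05 in limma, 3 were higher and 3 lower, against 19% and 29.6% of all genes. The called gene was decorin (Dcn), a proteoglycan that binds TGF-beta, at 156 and 187 in co-culture and 51.2 and 48.9 in OP9 cells. These OP9 values lie in the background range, so no fold is given. Endoglin (Eng), another coreceptor, had a log2 difference of 0.48 and was not called. Of 19 SMADs and regulators, 0 were called higher and 2 lower, against 2.71% and 2.97% of all genes. The 2 called lower were Pmepa1 and the inhibitory Smad6 (347 and 319 in co-culture, 718 and 730 in OP9 cells, 2.18-fold lower). The median of this list was -0.37, against -0.05 over all genes. At an unadjusted p below 0.05, 11 of the 19 were lower and 2 higher, where 29.6% of all genes were lower and 19% higher. Smad7, the other inhibitory SMAD, had a log2 difference of -0.25 and Tgfb1i1, a focal adhesion protein induced by TGF-beta, of -0.43, and neither was called. Of 6 tested genes of the related activin branch, 0 were called in either direction, where 5.67% of all genes were called. At an unadjusted p below 0.05 in limma, 2 were higher and 2 lower, against 19% and 29.6% of all genes.

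Markers of other cells moved in the same comparison. Leukocyte markers summed to 405 to 426 in co-culture and 227 to 232 in OP9 cells. Of 3 tested, 1 was called higher (Coro1a, 121 in co-culture and 24.9 in OP9 cells on average), where 2.71% of all genes were. Coro1a reached 100 on the co-culture arrays alone, so the minimum favoured this call. Of the 12 pre-B cell markers on the array, only Ebf1, which the stroma itself expressed, was at 100 or above in either group, and its mean was 1399 in co-culture and 2034 in OP9 cells. The defining pre-B markers Vpreb1 and Cd79a averaged 76.9 and 44.7 in co-culture, against 23.7 and 33.9 in OP9 cells. Of 6 adipocyte markers, 5 were called lower, where 2.97% of all genes were. The 6 summed to 11885 to 11991 in co-culture and 36366 to 36494 in OP9 cells. Macrophage markers summed to 548 to 583 in co-culture and 459 to 495 in OP9 cells, and 0 of 3 tested were called (5.67% of all genes were). Among them Cd14 averaged 251 in co-culture and 139 in OP9 cells, while Lyz2 averaged 50.0 and 92.5. The part of these cells in the Tgfbi, Ltbp2, Mmp9 and Timp1 values was not tested.

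The comparisons of OP9 with the other lines ask which of these genes differ between OP9, which strongly supports B-cell development, and the NIH3T3 and MC3T3 lines. The study reports B-cell cultures on OP9 and NIH3T3, not on MC3T3. These comparisons use the same OP9 arrays as the co-culture comparison. Tgfb2 and Ltbp2 were far higher in OP9 than in either line, and Tgfbi was far lower in OP9 cells than in NIH3T3. Against NIH3T3, 6 of 19 probe sets were called higher in OP9 and 4 lower, where 32.6% of all tested probe sets were called. Higher calls made up 20.8% and lower calls 11.8% of all probe sets. By gene 3 of 9 were called higher and 1 lower, where 30.8% of all genes were called, 20.5% higher and 10.3% lower. Against MC3T3, 6 probe sets were called higher and 2 lower, where 20.1% of all probe sets were called, 10.4% higher and 9.7% lower. By gene 3 were called higher and 0 lower, where 19.9% of all genes were called, 10.5% higher and 9.41% lower. At an unadjusted p below 0.05 in limma, 5 member genes were higher in OP9 and 2 lower against MC3T3. Over all genes these shares were 36.5% and 31.7%. Between the other 2 lines, 5 probe sets were called higher and 6 lower in MC3T3 than in NIH3T3, where 29.7% of all probe sets were called, 18.5% higher and 11.3% lower. By gene 1 was called higher and 2 lower, where 27.4% of all genes were called, 17.8% higher and 9.65% lower.

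**Figure D4:**
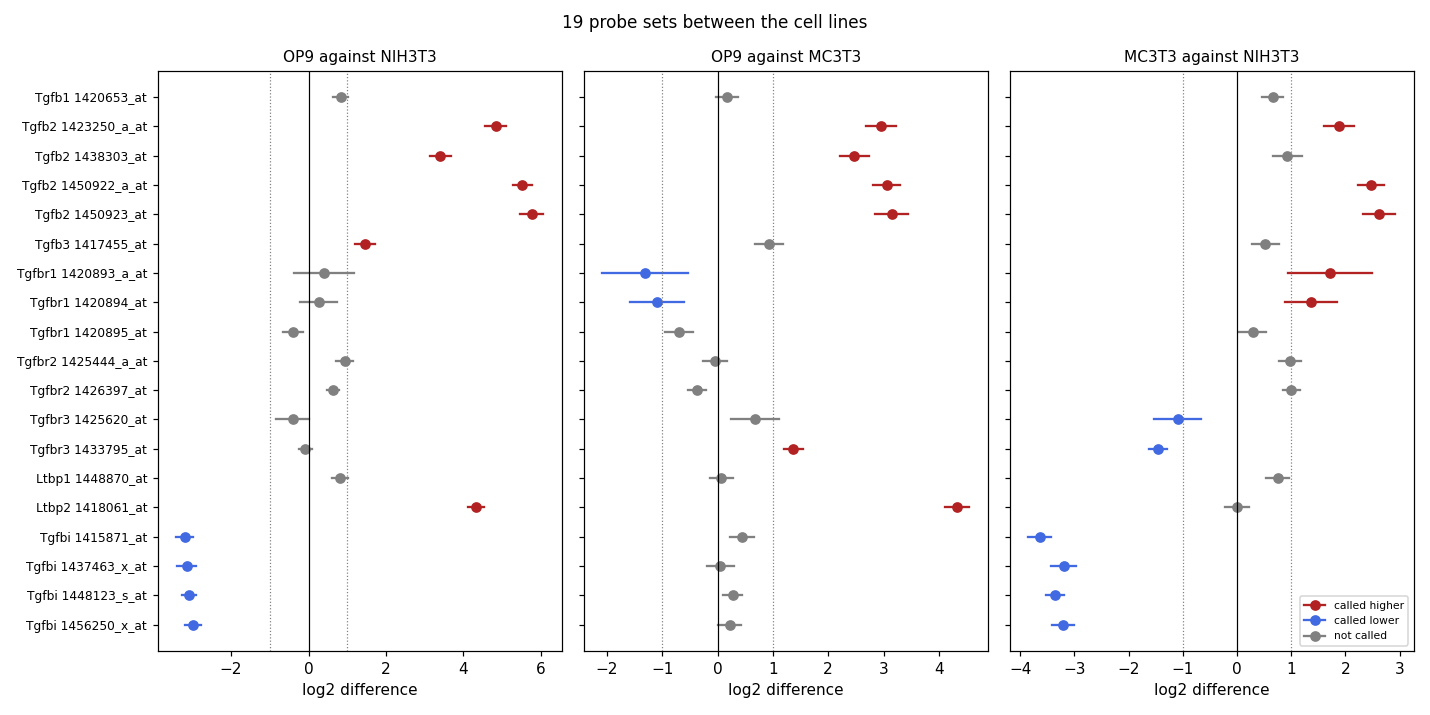
Log2 differences (x axes) of the 19 tested probe sets (rows) for OP9 minus NIH3T3, OP9 minus MC3T3 and MC3T3 minus NIH3T3; points are estimates from 2 arrays a group, bars are 95% confidence intervals of the limma fit, and dotted lines mark 2-fold. Tgfb2 and Ltbp2 lie far to the right in both OP9 panels, and Tgfbi far to the left in both NIH3T3 panels.

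Tgfb2 had the widest span of the ligands. At 1450923_at it measured 1078 and 1107 in OP9, 123 on both MC3T3 arrays and 22.8 and 17.7 in NIH3T3. At 1450922_a_at it measured 886 and 896 in OP9, 101 and 114 in MC3T3 and 20.8 and 18.0 in NIH3T3. At 1423250_a_at it measured 929 and 957 in OP9, 108 and 138 in MC3T3 and 34.5 and 32.0 in NIH3T3. The 3 lines did not overlap at any of these, with MC3T3 close to 100 and NIH3T3 far below it. OP9 was called higher at all 4 probe sets than NIH3T3 (largest limma adjusted p = 2.59e-07) and MC3T3 (largest adjusted p = 1.90e-06). At the probe sets listed above it was 7.73- to 8.86-fold higher than MC3T3. As the NIH3T3 values lie near the bottom of the scale, where background signal compresses differences, no fold against NIH3T3 is given. MC3T3 was called higher than NIH3T3 at 3 of the 4 probe sets. At the dimmest, 1438303_at, with 29.9 and 28.2 in MC3T3 and 14.4 and 16.2 in NIH3T3, the difference was below the 2-fold minimum and not called. That probe set passed the intensity minimum only through the OP9 groups, which favoured its higher calls in OP9.

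The other ligands differed less. Tgfb3 measured 524 and 576 in OP9, 296 and 281 in MC3T3 and 183 and 220 in NIH3T3, with OP9 above both lines on every array. It was 2.74-fold higher in OP9 cells than in NIH3T3 (limma adjusted p = 1.36e-05) and 1.90-fold higher than in MC3T3, below the 2-fold minimum. Tgfb1 measured 347 and 309 in OP9, 298 and 284 in MC3T3 and 180 and 188 in NIH3T3. It was 1.78-fold higher in OP9 cells than in NIH3T3 (adjusted p = 6.46e-05), also below the minimum, and had a log2 difference of 0.17 (interval -0.03 to 0.36) from MC3T3.

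The promoters of Tgfb2 and Tgfb1 are shown to set the ligand gene with the widest span between lines beside one whose groups stayed within 2-fold. Both are from RefSeq, build GRCm38.p6, with the same window and capitals as above. The Tgfb2 window is chr1:186705940-186706239 on the - strand and the Tgfb1 window is chr7:25686752-25687051 on the + strand.
Tgfb2: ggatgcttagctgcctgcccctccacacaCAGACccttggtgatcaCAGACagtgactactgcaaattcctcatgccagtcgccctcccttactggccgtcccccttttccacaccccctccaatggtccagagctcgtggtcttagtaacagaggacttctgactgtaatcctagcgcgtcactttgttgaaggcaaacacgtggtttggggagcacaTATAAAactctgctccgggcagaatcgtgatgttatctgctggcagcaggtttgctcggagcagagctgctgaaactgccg
Tgfb1: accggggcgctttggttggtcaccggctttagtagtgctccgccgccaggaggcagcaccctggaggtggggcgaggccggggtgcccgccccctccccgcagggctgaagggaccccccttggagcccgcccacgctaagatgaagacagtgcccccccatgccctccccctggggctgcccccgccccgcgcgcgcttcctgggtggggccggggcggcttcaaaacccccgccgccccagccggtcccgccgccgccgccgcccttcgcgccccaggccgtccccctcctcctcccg
The Tgfb2 window had a TATA box at position -31 from the start, 2 SMAD boxes and no GC box (GGGCGG, either strand). The Tgfb1 window had 6 GC boxes and neither a TATA box nor a SMAD box. Its GC content was 77.0%, against 54.3% for Tgfb2 and a median of 52.7% over all windows, and 35.7% of windows held a GC box. These are descriptions of the letters in the windows only.

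The receptors were expressed in all 4 groups. Tgfbr2 measured 1629 and 1663 in OP9, 2105 and 2153 in MC3T3 and 1082 and 1050 in NIH3T3 at its brightest probe set, so that the lines followed the order MC3T3, OP9, NIH3T3 with no overlap. OP9 was 1.54-fold higher than NIH3T3 (limma adjusted p = 9.09e-05) and 1.29-fold lower than MC3T3 (adjusted p = 0.00206), both within 2-fold. MC3T3 was higher than NIH3T3 by a log2 difference of 0.998, just short of 2-fold. The dimmer probe set was 1.91-fold higher in OP9 cells than in NIH3T3 and 1.97-fold higher in MC3T3 than in NIH3T3, but its OP9 and MC3T3 arrays overlapped (adjusted p = 0.697).

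Tgfbr3 was the receptor with the clearest difference between lines. Its brightest probe set measured 3990 and 4096 in OP9, 1578 and 1547 in MC3T3 and 4160 and 4414 in NIH3T3. OP9 was 2.59-fold higher than MC3T3 (limma adjusted p = 3.42e-06) and differed from NIH3T3 by a log2 value of -0.08 (interval -0.25 to 0.08). At the dimmer probe set OP9 was 1.61-fold higher than MC3T3 (adjusted p = 0.0139), which is below the 2-fold minimum, so that the call rests on 1 of 2 probe sets. MC3T3 was 2.74-fold lower than NIH3T3 at the brightest probe set and 2.14-fold lower at the dimmer one, where the NIH3T3 arrays read 268 and 415. Without the second NIH3T3 array the log2 difference of the dimmer probe set was -0.78, and it was no longer called.

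The probe sets of Tgfbr1 disagreed. The brightest, 1420895_at, measured 488 and 478 in OP9, 820 and 739 in MC3T3 and 578 and 703 in NIH3T3, and was called in no comparison. Its differences were 1.61-fold lower in OP9 cells than in MC3T3 (limma adjusted p = 0.00102) and 1.32-fold lower in OP9 cells than in NIH3T3 (adjusted p = 0.0108). The dim probe sets 1420893_a_at and 1420894_at were above 100 in MC3T3 alone, and passed the minimum only through those arrays. The first of them measured 65.7 and 57.9 in OP9, 135 and 174 in MC3T3 and 31.6 and 68.4 in NIH3T3. Both dim probe sets were called lower in OP9 cells than in MC3T3 (limma adjusted p = 0.0103 and 0.00252) and higher in MC3T3 than in NIH3T3. As they entered the test only by being high in MC3T3, the minimum favoured this direction, and no conclusion is drawn from it. Their OP9 and NIH3T3 levels lie in or near the background range, so no fold is given. Both calls against MC3T3 were lost without the second OP9 array (adjusted p = 0.0599 for 1420893_a_at and a log2 difference of -0.96 for 1420894_at). The call of 1420894_at was also lost without the first MC3T3 array (a log2 difference of -0.96), and that of 1420893_a_at without the second (adjusted p = 0.068).

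Among the latency proteins, Ltbp2 was a gene of the OP9 groups. It measured 1387 and 1296 in OP9, 70.5 and 63.0 in MC3T3 and 70.5 and 63.5 in NIH3T3, so that all 4 arrays of the other lines lay below 100. OP9 was 20.0-fold higher than NIH3T3 (limma adjusted p = 3.88e-08) and 20.1-fold higher than MC3T3 (adjusted p = 7.04e-08). Ltbp2 passed the minimum only through the arrays of the OP9 groups, so the minimum favoured this direction. Ltbp1 was expressed in all lines, at 559 and 519 in OP9, 550 and 481 in MC3T3 and 311 and 299 in NIH3T3. It was 1.77-fold higher in OP9 cells than in NIH3T3 (adjusted p = 0.000107), within 2-fold, and the OP9 and MC3T3 arrays overlapped.

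Tgfbi was highest in NIH3T3. At 1448123_s_at it measured 240 and 248 in OP9, 196 and 207 in MC3T3 and 2122 and 2011 in NIH3T3. Over its 4 probe sets it was 7.94- to 9.19-fold lower in OP9 cells than in NIH3T3 (largest limma adjusted p = 2.13e-07) and 9.20- to 12.5-fold lower in MC3T3 than in NIH3T3 (largest adjusted p = 2.62e-07). OP9 and MC3T3 differed by 1.04- to 1.36-fold, and none of the 4 probe sets was called. In co-culture Tgfbi stayed below NIH3T3 at each probe set, by 1.29- to 1.65-fold, and all 4 of these differences had an adjusted p of 0.00649 or less in limma.

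Over all groups, the levels of the brightest probe set of each gene can be ranked, and 17 of the 27 neighbouring pairs of groups differed at an adjusted p below 0.05 in limma. No minimum fold applies here, and without one 6983 to 14226 of all 18720 tested probe sets differed in the comparisons above. Tgfbi ran from NIH3T3 over co-cultured OP9 and OP9 to MC3T3, with every step past this threshold at 1448123_s_at. At 1437463_x_at and 1456250_x_at the step between OP9 and MC3T3 was not (adjusted p = 0.665 and 0.0619). Ltbp2 ran from co-cultured OP9 over OP9 to NIH3T3 and MC3T3, and the last pair could not be separated (adjusted p = 0.96). For Tgfb2, Tgfb3 and Tgfb1 alike OP9 was first and co-cultured OP9 next, a pair that did not pass the adjusted threshold, followed by MC3T3 and then NIH3T3. At Tgfb2 1423250_a_at the arrays of that pair did not overlap, and at 1438303_at and 1450922_a_at co-cultured OP9 came first. For Tgfb1, co-cultured OP9 and MC3T3 were also not separated (adjusted p = 0.473). Tgfbr1 had MC3T3 highest, followed by NIH3T3, co-cultured OP9 and OP9, of which the last 3 formed neighbouring pairs that were not separated. Tgfbr2 ran from MC3T3 over OP9 and co-cultured OP9 to NIH3T3, and only the OP9 pair was not separated. Tgfbr3 ran from co-cultured OP9 over NIH3T3 and OP9 to MC3T3, with NIH3T3 and OP9 not separated (adjusted p = 0.306). Ltbp1 ran from co-cultured OP9 over OP9 and MC3T3 to NIH3T3, with OP9 and MC3T3 not separated (adjusted p = 0.542).

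The genes around the pathway were counted between the lines as well. Among the 31 target genes, OP9 had 12 higher and 5 lower calls against NIH3T3, where 20.5% of all genes were called higher and 10.3% lower. Against MC3T3 it had 13 higher and 4 lower calls, where 10.5% of all genes were called higher and 9.41% lower. Acta2 was 80.0-fold higher in OP9 cells than in NIH3T3, with 7844 and 8666 in OP9 and an average of 104 ± 15.9 (SD, n = 2) in NIH3T3. The transcription factor Snai2 was 40.8-fold higher in OP9, with an average of 6273 ± 280 in OP9 and 154 ± 14.7 in NIH3T3. The cell cycle inhibitor Cdkn2b was called higher in OP9, with 984 and 1066 in OP9 and 32.8 and 22.7 in NIH3T3, which lie in the background range of the array. Cdkn2b passed the minimum only through the OP9 groups, so the minimum favoured this call. Ccn2 was 14.5-fold higher in OP9 cells than in MC3T3, and Has2, the hyaluronan synthase, was called lower, with 17.5 and 19.1 in OP9, in the background range, and 297 and 323 in MC3T3. MC3T3 had 9 target genes higher and 9 lower than NIH3T3, where 17.8% of all genes were called higher and 9.65% lower. Among them Timp3, an inhibitor of matrix proteases, measured 2666 and 2501 in MC3T3 and 20.4 and 25.5 in NIH3T3. Postn measured 1970 and 2249 in MC3T3 and 31.9 and 40.1 in NIH3T3. Both NIH3T3 levels lie in the background range, so no fold is given. Ccn2 was 18.1-fold lower in MC3T3.

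For activation of the latent ligand, 5 genes of 16 were higher and 2 lower in OP9 cells than in NIH3T3 (20.5% and 10.3% of all genes were called so), and 6 higher and 2 lower in OP9 cells than in MC3T3 (10.5% and 9.41% of all genes were called so). Thbs1 measured 562 and 594 in OP9, 73.2 and 67.8 in MC3T3 and 19.1 and 17.4 in NIH3T3. It was called higher in OP9 against both lines, neither of which reached 100, so the minimum favoured this direction. Itgb8, an integrin chain that activates latent TGF-beta, was near the floor in OP9 (7.72 and 7.43), against 103 ± 15.7 in MC3T3 and 75.6 ± 41.5 in NIH3T3 (SD, n = 2 each), and was called lower in OP9 against both lines. Its only values at 100 or above were 105 in NIH3T3 and 114 in MC3T3, so the minimum favoured this direction. Among the SMADs and their regulators 3 of 19 passed as higher in OP9 and 4 as lower when set against NIH3T3 (20.5% and 10.3% of all genes were called so). At an unadjusted p below 0.05 in limma 4 were higher and 14 lower, against 46.4% and 31.9% of all genes, and the median log2 difference was -0.56, against 0.16 over all genes. The SMAD corepressors Skil and Tgif1 were 3.91- and 3.39-fold lower in OP9, and Smurf1 and Tgif2, named after their values were seen, were 2.05- and 2.01-fold lower. Tgif2 reached 100 in NIH3T3 alone, so the minimum favoured its call. Against MC3T3, 2 of the 19 were called higher and 0 lower, where 10.5% and 9.41% of all genes were called so. At an unadjusted p below 0.05 in limma, 6 were higher and 5 lower, against 36.5% and 31.7% of all genes. Smad6 and Pmepa1 were called higher in OP9 in both comparisons. Smad6 was 4.36-fold higher than in NIH3T3 and 4.49-fold higher than in MC3T3. Pmepa1 measured 380 and 322 in OP9, 64.5 and 58.3 in MC3T3 and 70.8 and 71.5 in NIH3T3. It passed the minimum only through the OP9 groups, so the minimum favoured these calls. Among coreceptors and matrix inhibitors, decorin was called lower in OP9 against MC3T3, with 51.2 and 48.9 in OP9, in the background range, and 1072 and 1125 in MC3T3, and Eng was 2.64-fold lower in OP9 cells than in NIH3T3. In the activin branch, the activin antagonist follistatin (Fst) was called higher in OP9, with 304 and 310 in OP9 and 11.9 and 12.9 in NIH3T3, in the background range.

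The genes whose profile over the 8 arrays was most like that of a member were found by the distance between centred log2 values, for the 3 members whose group means spanned at least 4-fold, among 10083 other genes. For Tgfb2 they were Ccdc80 (distance 0.178) and Antxr1 (0.185). Ccdc80, a matrix protein, averaged 3960 in co-culture, 3706 in OP9, 549 in MC3T3 and 169 in NIH3T3. For Ltbp2 they were Gpm6b (0.234) and the protease gene Mmp23 (0.342), and Gpm6b averaged 747 in co-culture, 381 in OP9, 16.7 in MC3T3 and 21.7 in NIH3T3. For Tgfbi they were the chemokine gene Ccl7 (0.386) and Gas7 (0.402). Ccl7 averaged 1869 in co-culture, 167 in OP9, 205 in MC3T3 and 2654 in NIH3T3, with the same groups high and low as for Tgfbi. With 4 groups, such likeness over arrays is a description.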

How the data were processed

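The deposited values are normalized intensity on a linear scale, from 8 arrays, 2 in each of 4 groups. The study's methods name RMA Express, affylmGUI and dChip, and the sources used here do not say which of them made these values. Probe sets were named through the platform annotation, in which 34958 had 1 symbol, 932 several and 9211 none. After log2 transformation without a pseudocount, the 18720 probe sets that reached 100 on 2 or more arrays were fitted by group with limma 3.58.1 in R 4.3.3 (lmFit, eBayes, 4 residual degrees of freedom, Benjamini-Hochberg over all of them). A call needed at least 2-fold and an adjusted p below 0.05. Each gene was represented by its brightest probe set (highest mean log2 value). With 2 arrays against 2, an exact two-sided permutation test cannot go below 0.333, so it was not used and p-values are those of limma. The number of arrays limits the precision, and no depth applies. The members and lists were chosen with earlier results of these data known. Named genes were all members, up to 4 called genes of each list and comparison with the largest fold, and preset genes of each list. Other genes were named after their values were seen. Some listed genes were not analysed here. The fit was tested on simulated data. Alternatives were other minimums, scalings, priors, pseudocounts and folds, fewer arrays and fewer probe sets. Promoter windows came from RefSeq.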

Additional observations from a re-analysis of the deposited data

How the results depend on the processing

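No called member probe set reversed its direction under any alternative run. Over all single probe set differences of the members, 1422 alternative values kept their side of the threshold, 16 no longer passed it and 30 newly passed it. In co-culture the 4 Tgfbi probe sets were called under every alternative that tested them, between 5.07- and 6.52-fold, and Ltbp2 ranged from 2.39- to 2.56-fold and was lost only at a 5-fold minimum.

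Leaving out the probe sets with an x, s or a suffix reduced the called member probe sets to 2 in co-culture (5 with them), 5 in OP9 against NIH3T3 (10), 5 in OP9 against MC3T3 (8) and 5 in MC3T3 against NIH3T3 (11), by fewer probe sets tested, and the called member genes to 1, 2 and 1 in co-culture, OP9 against NIH3T3 and MC3T3 against NIH3T3. The gene counts fell because a brightest probe set with a suffix, such as that of Tgfbi, was left out and not replaced, while Tgfbi 1415871_at stayed called in co-culture. Without the suffixed probe sets, 729, 4451, 2719 and 4000 of all 12808 tested were called in the 4 comparisons. With a minimum of 200, 5 member probe sets were called in OP9 against MC3T3, where 3014 of all 14561 tested were called. With no minimum fold, member genes called were 4 in co-culture, 8 in OP9 against NIH3T3, 7 in OP9 against MC3T3 and 8 in MC3T3 against NIH3T3. In the same order, 6983, 14226, 11762 and 13782 of all 18720 tested probe sets were called without that minimum. The last 2 comparisons then had 14 and 18 member probe sets called, and genes of the pathway lists called numbered 45, 64, 59 and 55 in the 4 comparisons (14, 33, 32 and 32 with the 2-fold minimum). At a 5-fold minimum these were 4, 17, 14 and 16, with 1 member gene called in co-culture and 1 in MC3T3 against NIH3T3, and 5 and 6 member probe sets in OP9 against MC3T3 and MC3T3 against NIH3T3. Of all tested probe sets, 120, 1620, 1001 and 1341 were then called. Over single lists, 82 counts moved by more than 1.5 times and 758 did not.

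Leaving out 1 array at a time gave, in the same order of comparisons, 5 to 5, 10 to 10, 6 to 8 and 11 to 12 member probe sets, 2 to 2, 4 to 4, 3 to 3 and 3 to 4 member genes, and 12 to 15, 32 to 35, 32 to 32 and 31 to 34 list genes. Between 14 and 18 neighbouring pairs then differed. A group left with 1 array was assumed to vary like the others.

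Replicate numbers are shared by the groups but give only 2 pairs and were not taken to pair the arrays. Deviations of same-numbered arrays correlated at 0.034 in co-culture against OP9, 0.028 in OP9 against NIH3T3, 0.18 in OP9 against MC3T3 and 0.034 in MC3T3 against NIH3T3. With the replicate number as a block, 1005, 6107, 3764 and 5571 probe sets were called, against 1004, 6107, 3764 and 5569 without it, and no member call changed.

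The median probe set was 0.149 higher on the log2 scale in OP9 than in NIH3T3 and 0.125 higher in MC3T3 than in NIH3T3, and 0.008 and 0.019 after quantile normalization, so the differences of Tgfb1, Tgfbr2 and Ltbp1 from NIH3T3 include that shift. After median scaling the Tgfbr2 probe sets passed 2-fold in MC3T3 against NIH3T3 (log2 differences of 1.09 and 1.06). Levels near 10 to 60 lie in the background of the array and bound no fold.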

Other observations

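The probe sets of Tgfbr1 gave different answers by gene summary. With the mean of its 3 probe sets in place of the brightest, Tgfbr1 was called lower in OP9 than in MC3T3 (a log2 difference of -1.03, limma adjusted p = 0.00135) and higher in MC3T3 than in NIH3T3 (1.12, adjusted p = 0.000678). The brightest probe set alone had log2 differences of -0.69 and 0.29 and was not called in either comparison. The dimmer probe sets in the mean, 1420893_a_at and 1420894_at, reached 100 only on MC3T3 arrays. The calls of the mean are therefore no separate support for a difference from MC3T3.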
